A study of Rubus occidentalis with 14 samples.

Results

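Stage 1 and stage 2 fruit of black raspberry (Rubus occidentalis), the earliest pair of neighbours among 5 fruit stages, were compared by RNA sequencing. The comparison used 6 of the 14 libraries, 3 per stage. It took in every gene that reached 10 normalised counts in at least 2 of these 6 libraries, which was 18667 of the 33253 gene identifiers in the deposited table. Both stages were fruit of one advanced breeding selection, NC 349, planted at a field research station, and the labels give no treatment or genotype difference between them. Library names carry Gr for stage 1 and Re for stage 2. The labels do not spell these out, and green and red fruit colour could not be checked here, since the identifiers come without gene names. The 3 libraries of a stage are labelled as biological replicates, but which fruits or plants went into each is not stated, so p-values reflect the spread between libraries and some of it may be technical. Titles give replicates 2 and 3 of each stage a shared code and replicate 1 another. Whether the code marks a shared source cannot be told from the titles, and a stage may hold fewer than 3 independent units.

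A raspberry is an aggregate fruit, made of many small drupelets that each hold a seed. As it ripens, chlorophyll is lost, anthocyanin pigments and sugars build up, and cell walls loosen, and these processes are known to be accompanied by wide changes in gene activity. Black raspberry passes from green through red to black. Because fruit was sequenced in bulk, more cells of one tissue and more RNA per cell cannot be told apart. Levels here are normalised counts, read counts divided by a size factor per library. They are not corrected for transcript length, so an order of genes by normalised count is an order by reads and not by molecules.

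Depth differed more between replicates than between stages. In stage 1, replicates 1, 2 and 3 held 35199548, 7576338 and 35168553 reads, and in stage 2 they held 30430672, 8601064 and 39938265. A read was worth 0.319 to 0.331 normalised counts in the deeper stage 1 libraries and 1.48 in replicate 2. In stage 2 it was worth 0.330 to 0.429 in the deeper libraries and 1.67 in replicate 2. Of the 14586 identifiers set aside, 7910 had no reads in any of the 6 libraries and 513 reached the minimum in at least 2 of the other 8 libraries. The minimum was reached in stage 1 libraries only by 1346 of the genes kept and in stage 2 libraries only by 269. At the border, 494 genes were kept with exactly 2 libraries at the minimum and 671 were set aside with exactly 1.

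One library of each stage stood apart from the other two in more genes than the rest. Among the 12854 genes whose mean over the 6 libraries reached 100 normalised counts, stage 2 replicate 2 lay at least 2-fold above both other stage 2 libraries in 349 genes and at least 2-fold below both in 42. The corresponding counts were 26 above and 92 below for stage 2 replicate 1, and 40 above and 5 below for stage 2 replicate 3. Of the 349 genes, 341 also had a stage 3 mean above the mean of the other two stage 2 libraries, and of the 42 genes 41 had a stage 3 mean below it. Stage 2 replicate 2 thus lay on the side of stage 3 for nearly all of these genes. For 207 of the 349 it lay on the side of stage 1 as well, since their stage 1 mean was also above that of the other two stage 2 libraries. The 40 genes high in stage 2 replicate 3 all had a stage 1 mean above that of the other two libraries, so for them this replicate lay on the side of stage 1. In stage 1, replicate 1 lay at least 2-fold above both others in 305 genes and below both in 60, and replicate 3 lay below both in 125 and above both in 3. Stage 1 replicate 2 lay above both in 79 genes and below both in 5. The median within-stage SD of a gene was 0.23 on the log2 scale in stage 1 and 0.20 in stage 2.

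Nearly 1 in every 2 genes changed between the stages, and under the deposited scaling falls were both more frequent and larger than rises. With limma on log2(normalised count + 1), 8676 genes passed an adjusted p of 0.05, which was 46.5% of those tested. Of these, 3488 rose (18.7% of those tested) and 5188 fell (27.8%). The median called rise was 0.96 on the log2 scale, a 1.94-fold difference, and the median called fall was -1.73, a 3.33-fold difference. The smallest change that passed was 0.28 on the log2 scale. Without stage 2 replicate 2, 2926 genes rose and 4783 fell, and without stage 1 replicate 1, 3803 rose and 5070 fell. The balance of directions depended on the scaling. Rises were 40.2% of the calls with the deposited scaling, 24.4% with equal total reads and 54.6% after quantile normalization. Over all tested genes the median log2 change was -0.06, -0.31 and 0.13 under these scalings, and each change is relative to that shift.

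**Figure D1:**
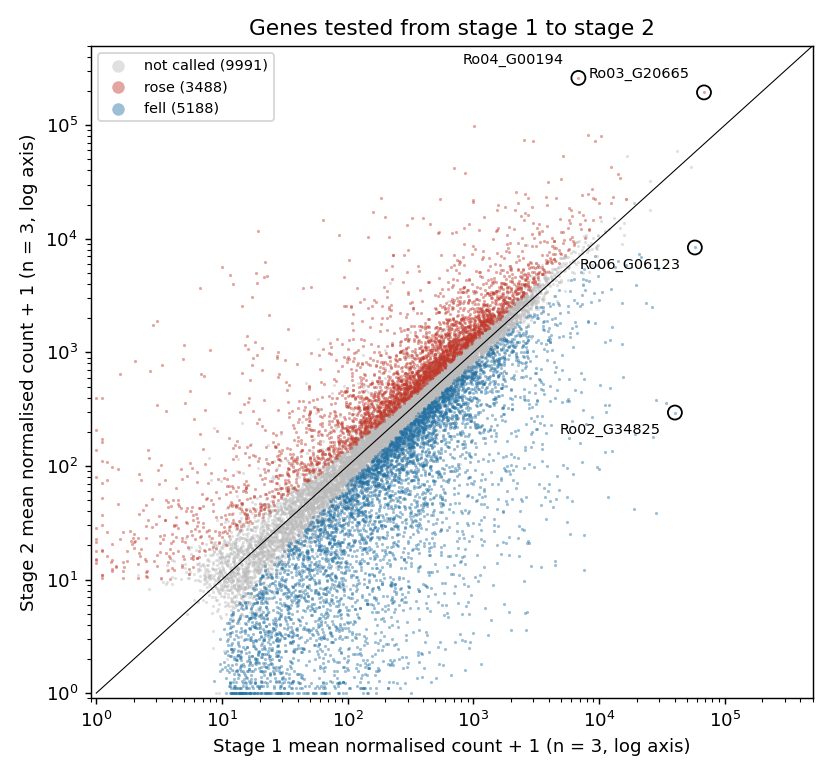
Mean normalised count + 1 of each tested gene in stage 1 (horizontal, log axis) and stage 2 (vertical, log axis), 3 libraries per stage, with called rises in red, called falls in blue and genes that did not pass in grey. The circled genes are those described by library in the text; the median called fall, -1.73 on the log2 scale, lies farther from the diagonal than the median called rise, 0.96, while the largest called changes in both directions are alike in size, -9.60 and 9.64.

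Falls outnumbered rises in every class of change from 2-fold upwards. A change of at least 2-fold was called in 5366 genes (28.7% of those tested), 1663 rising and 3703 falling. At 4-fold or more there were 664 rises and 2317 falls. At 16-fold or more, which 993 genes reached (5.32% of those tested), there were 160 rises and 833 falls, and at 64-fold or more 55 rises and 221 falls. Expressed as a share of each direction, 4.59% of the rises and 16.1% of the falls reached 16-fold. The counts of large changes depend on the value added before taking logs, because many of these genes had few reads in one stage. With 10 added in place of 1, 425 genes reached 16-fold. They were 103 rises and 322 falls. Falls outnumbered rises at 16-fold or more under each scaling too, by 937 to 135 with equal total reads and by 491 to 249 after quantile normalization. These counts share the minimum for testing, which 1346 genes reached in stage 1 libraries only and 269 in stage 2 libraries only. The 833 falling genes had a median of 2.58 to 3.34 normalised counts in the stage 2 libraries, under that minimum. How many of them were kept through stage 1 only was not counted, and the filter's part in the excess of falls was not tested. At 2-fold or more the directions were nearly equal after quantile normalization, with 2676 rises and 2800 falls.

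**Figure D2:**
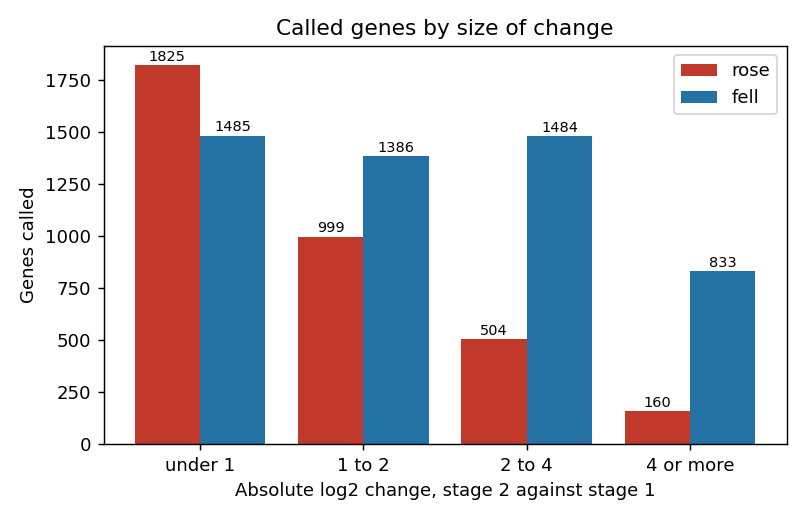
Number of called genes (vertical) by absolute log2 change from stage 1 to stage 2 (horizontal), with rises in red and falls in blue. Rises outnumber falls below 1 on the log2 scale, 1825 against 1485, and falls outnumber rises in each larger class, up to 833 against 160 at 4 or more.

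The 3 libraries of one stage were all above the 3 of the other in 10864 genes (58.2% of those tested). In 4548 genes the stage 2 libraries were all higher (24.4%), and in 6316 the stage 1 libraries were all higher (33.8%). Of these 10864 genes, 8629 also passed the test, and 2235 did not. Only 47 of the called genes had overlapping libraries. A further 437 genes differed by at least 2-fold between the stages without passing, and 0 genes differed by at least 16-fold without passing.

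Under the deposited scaling rises made up a larger share of the genes with many reads than of those with fewer, and falls a smaller share. Genes were sorted by their mean over the 6 libraries, so both stages contributed to the sorting. Of the 85 genes whose mean reached 10000 normalised counts, 52 rose and 14 fell. Of the 2961 genes from 1000 to 10000, 34.7% rose and 16.8% fell. Of the 9808 genes from 100 to 1000, 19.0% rose and 25.6% fell. Of the 5201 genes from 10 to 100, 9.40% rose and 36.0% fell. Directions at low levels also depend on the minimum for testing, which far more genes reached through stage 1 libraries only than through stage 2 libraries only. The 612 genes with a mean under 10 had to be uneven between libraries to be kept, so no balance is read from them. With equal total reads 56.5% of the genes at 10000 or more rose and 18.8% fell, but from 1000 to 10000 falls outnumbered rises, 747 against 688. From 100 to 1000, 11.3% then rose and 37.3% fell. After quantile normalization, which gives every library the same distribution of values, rises outnumbered falls in every band, and 28.6% of the genes from 10 to 100 rose. The median standard error of the log2 change was 0.16 in genes with a mean of at least 100 and 0.34 in those below.

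**Figure D3:**
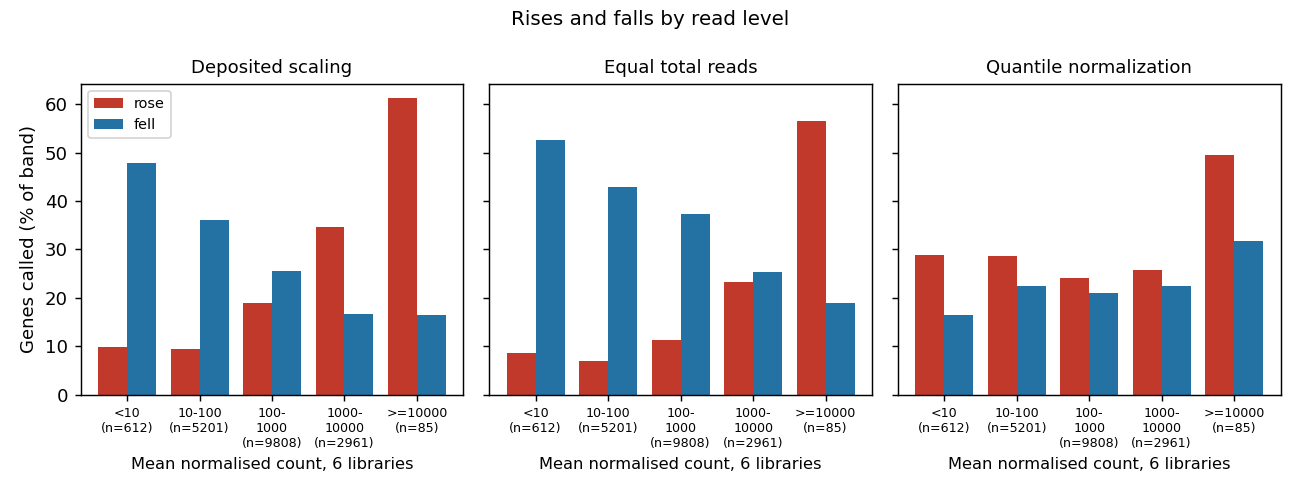
Percentage of genes called as rises (red) and falls (blue) within bands of mean normalised count over the 6 libraries, under the deposited scaling, with equal total reads and after quantile normalization; n is the number of genes in a band. With the deposited scaling the rises go from 9.40% of the band from 10 to 100 to 61.2% of the band at 10000 or more, with equal total reads the band from 1000 to 10000 holds more falls than rises, and after quantile normalization rises outnumber falls in every band. Genes under 10 were kept only where libraries were uneven.

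The RNA pool was redistributed between these groups of genes. The genes called as rises took 21.3% ± 0.73 of a library's reads in stage 1 and 49.4% ± 1.17 in stage 2 (SD, n = 3 each). The genes called as falls took 30.5% ± 1.87 in stage 1 and 7.82% ± 0.57 in stage 2. Both groups were chosen on these same values, so the shares describe the size of the shift and carry no test. Genes that did not pass took 47.0% to 49.3% of the reads of a stage 1 library and 42.2% to 43.4% of a stage 2 library. With the deposited scaling the gain was held by fewer genes than the loss, and there were also fewer rises than falls, 3488 against 5188. The 10 genes with the greatest gain in mean normalised count made up 21.5% of the summed gain of all rises, and the 10 with the greatest loss made up 12.2% of the summed loss of all falls. A gain of 50% was reached with 103 genes and a loss of 50% with 200.

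The list of genes with the most reads turned over. Only 2 of the 10 genes with the highest stage 1 mean were among the top 10 of stage 2. Between single libraries, 5 to 9 of the top 10 were shared within a stage and 1 to 3 between the stages. Of the top 100 genes, 33 were common to both stages, where pairs of libraries shared 70 to 89 within a stage and 26 to 39 between stages. All 67 genes that entered the top 100 in stage 2 were called as rises, and 46 of the 67 that left it were called as falls. The top 100 of stage 1 held 19 genes that rose and 46 that fell, and the top 100 of stage 2 held 86 that rose and 0 that fell. Over all tested genes 18.7% rose and 27.8% fell. The lists were chosen on the same stage means that the test compares, so these directions are largely built in and carry no test. Among the top 1000, 632 genes were common to both stages, against 795 to 911 for pairs of libraries within a stage.

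No names accompany the identifiers in the table, so 2 rises and 2 falls are described by identifier, those with the greatest gain and loss of normalised counts among genes that passed and whose libraries did not overlap. Passing and non-overlap were required of each described gene, so neither adds support for it. Ro04_G00194 had the greatest gain. Its stage 1 libraries stood at 8203, 9354 and 3015 normalised counts in replicates 1, 2 and 3, and its stage 2 libraries at 249572, 308166 and 226359. Every stage 2 library was thus far above every stage 1 library, and replicate 3 was the lowest in both stages. The mean went from 6857 ± 3377 to 261366 ± 42159 (SD, n = 3 each), and limma gave a log2 change of 5.40 ± 0.43 (SE) at an adjusted p of 5.7e-05. The gene moved from rank 138 by reads in stage 1 to rank 1 in stage 2 and made up 5.96% of the summed gain by itself. Its share of a library's reads was 0.0259% to 0.0832% in stage 1 and 1.72% to 2.14% in stage 2. Its stage 5 mean under the deposited scaling was 643957 ± 91588 (SD, n = 3).

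Ro03_G20665 was the gene with the most reads in stage 1 and came after Ro04_G00194 in stage 2. It stood at 98799, 54561 and 52052 normalised counts in stage 1 replicates 1, 2 and 3 and at 244983, 174370 and 165152 in stage 2. Replicate 1 was the highest library in both stages, and the lowest stage 2 library lay above the highest stage 1 library. The log2 change was 1.55 ± 0.35 with a limma adjusted p of 0.00851, a 2.85-fold difference of means. With the replicate number as a term, which takes up the high replicate 1, the adjusted p was 0.00169. Among replicates 2 and 3 alone, which share a title code within each stage, the log2 change was 1.67 (limma adjusted p 0.00722). With only replicates 1 and 3 of each stage the gene did not pass (log2 change 1.49, limma adjusted p 0.0768). After quantile normalization its log2 change was -0.14 (limma adjusted p 0.653), since that scaling fixes the values of the first and second ranks. The level in stage 5 under the deposited scaling was 129409 ± 43094 (SD, n = 3), with replicate 1 again the highest at 179099. Normalised totals were 1.12e+07 to 1.16e+07 in the stage 1 libraries and 2.73e+07 to 2.79e+07 in the stage 5 libraries. A stage 5 level above that of stage 1 is therefore not by itself a larger share of reads.

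Ro06_G06123 had the greatest loss. Its stage 1 libraries stood at 69352, 63510 and 40911 normalised counts and its stage 2 libraries at 8428, 8789 and 7961. The stage 2 libraries lay close together, while the stage 1 libraries varied and replicate 3 was the lowest in both stages. The log2 change was -2.75 ± 0.23 with a limma adjusted p of 6.63e-05, a 6.90-fold difference of means, and the gene went from rank 2 to rank 160 by reads. Its mean was 7986 ± 1956 in stage 3 (n = 3). It stood at 10293 ± 264 in stage 4 (n = 2) and reached 26012 ± 6891 in stage 5 (n = 3). Under the deposited scaling the stage 5 mean thus lay between those of stages 1 and 2.

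Ro02_G34825 stood at 35736, 33129 and 51697 normalised counts in stage 1 replicates 1, 2 and 3 and at 251, 289 and 343 in stage 2. The libraries of the stages did not overlap, and replicate 3 was the highest in both. The mean fell from 40187 ± 10053 to 294 ± 46.0, a 137-fold difference, with a log2 change of -7.07 ± 0.20 and a limma adjusted p of 3.16e-06. By reads it went from rank 5 to rank 7993. It remained low, at 98.5 ± 56.3 in stage 3 and 120 ± 102 in stage 5 (n = 3 each). Together the genes with the greatest and the next greatest loss made up 3.71% of the summed loss of all falls.

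**Figure D4:**
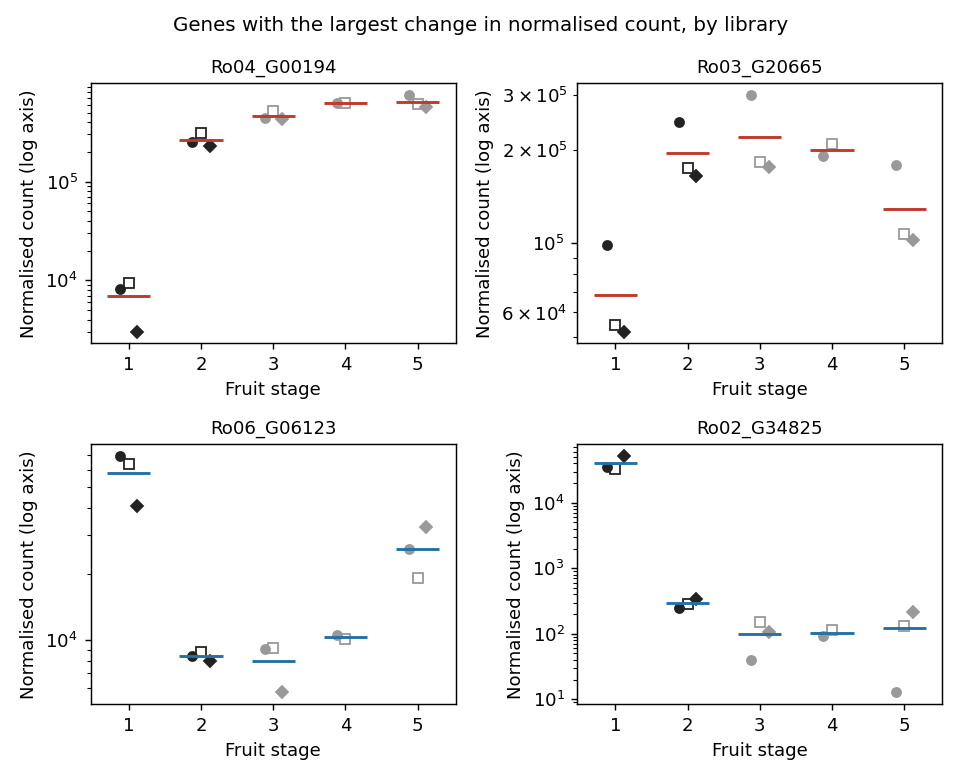
Normalised counts (log axes) of the described genes in each library by fruit stage; circles, open squares and diamonds are replicates 1, 2 and 3, bars are stage means, and the stage 1 and 2 libraries compared here are in black. Ro04_G00194 goes from 6857 to 261366 and Ro02_G34825 from 40187 to 294 in the mean. Ro03_G20665 is highest in replicate 1 of stages 1, 2, 3 and 5, and its rise is absent after quantile normalization. Levels use the deposited scaling.

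Few genes that were well covered in one stage were without reads in the other. Of the 13080 genes whose stage 1 mean reached 100 normalised counts, 5 were without reads in all stage 2 libraries, and 42 had 3 reads or fewer over all of stage 2. Of the 11941 genes whose stage 2 mean reached 100, 3 were without reads in all stage 1 libraries and 8 had 3 reads or fewer. Against a floor of 3 reads per library, which covers counting error only, the 5 genes were at least 54.6-fold to at least 130-fold lower in stage 2. The 3 genes were at least 64.1-fold to at least 185-fold higher in stage 2. All 8 of these genes passed the test, as did 46.5% of all tested genes. They were chosen for a large difference between the stages, so their passing adds no support. Counted at the depth of the shallowest library, where a level that rounds to no reads in each library of a stage counts as none, the numbers became 29 genes and 8 genes. The summed size factors were 6.83 for stage 1 and 5.96 for stage 2, so the stages were of similar depth.

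Replicate numbers of the stages were used to form pairs, as a further view of the same libraries. In 6167 genes (33.0%) all 3 pairs were higher in stage 2 and in 7657 (41.0%) all were lower. The pairs disagreed, or a pair was equal, in 4843 genes (25.9%). Of the 3488 called rises, 3487 were higher in every pair, and of the 5188 called falls, 5184 were lower in every pair. In the 8629 called genes without overlap of libraries, any pairing gives the same sign. The agreement thus follows from the calls and adds no support to them. The pairs gave similar sizes of change: the median log2 change of the called rises was 0.91, 1.04 and 0.95 in pairs 1, 2 and 3, and that of the called falls -1.80, -1.73 and -1.62. Pair 2, of the shallow libraries, had the most genes at least 2-fold higher in stage 2, 2341 against 1791 and 1998 in pairs 1 and 3. A 2-fold rise in all 3 pairs was seen in 1291 genes and a 2-fold fall in all 3 in 3087. With the replicate number as a term, limma called 9748 genes, 4110 rising and 5638 falling. Of these, 8597 were called without it too. The 1151 genes called only with the term had small changes, with a median absolute log2 change of 0.57 against 1.34 for the genes called both ways.

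The genes that fell by at least 2-fold mostly stood lower still in later stages. These groups were chosen on stages 1 and 2, so only the later libraries add to them, and their levels are given as a description. Relative to the stage 1 mean, the median log2 level of the 3703 genes was -2.68 to -2.35 in the stage 2 libraries. It was -3.72 to -3.49 in the stage 3 libraries and -4.10 to -3.98 in the stage 5 libraries. The stage 5 mean was below the stage 2 mean in 2720 of these genes (73.5%), between the means of stages 1 and 2 in 768 (20.7%) and at or above the stage 1 mean in 215 (5.81%). With equal total reads these counts were 3084, 531 and 88. The same shares over all tested genes were not taken, so no excess over other genes is read from them. Levels were low by then: the group's median was 4.90, 5.53 and 7.39 normalised counts in stage 5 replicates 1, 2 and 3. A read in those libraries was worth 0.979, 2.76 and 1.48 normalised counts. Of the 833 genes that fell by at least 16-fold, the stage 5 mean was at or above the stage 1 mean in 5.

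Among the genes that rose by at least 2-fold, the median level stayed above that of stage 1, by an amount that depended on the scaling. For the 1663 genes with the deposited scaling the median lay 1.66 to 1.87 above the stage 1 mean on the log2 scale in the stage 2 libraries. It lay 2.01 to 2.13 above in stage 3 and 1.88 to 2.07 above in stage 5. With equal total reads, an alternative chosen after the data were seen, it lay 1.45 to 1.53 above in stage 2 and 0.63 to 0.83 above in stage 5. Single genes went different ways: with the deposited scaling the stage 5 mean was above the stage 2 mean in 874 genes (52.6%), between the means of stages 1 and 2 in 486 (29.2%) and at or below the stage 1 mean in 303 (18.2%). With equal total reads these counts were 479, 595 and 589. Here too the same shares over all tested genes were not taken. Of the 160 genes that rose by at least 16-fold, 59 (36.9%) had a stage 5 mean above that of stage 2. Their median level varied between the stage 5 libraries, at 4.47, 3.37 and 5.16 above the stage 1 mean in replicates 1, 2 and 3.

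**Figure D5:**
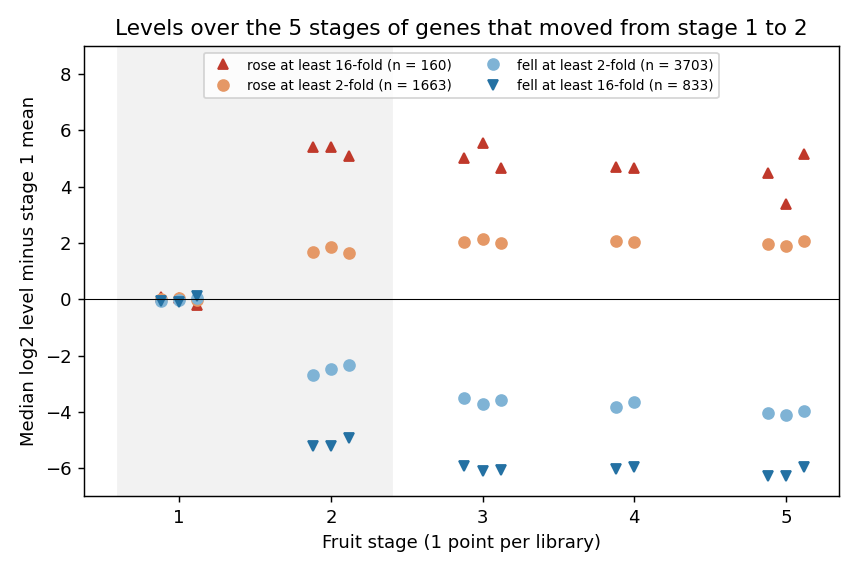
Median log2 level of each group of genes minus its stage 1 mean (vertical) in each library of the 5 fruit stages (horizontal); the shaded stages chose the groups. Genes that fell at least 2-fold go from -2.35 or below in the stage 2 libraries to -3.98 or below in the stage 5 libraries, and genes that rose at least 2-fold lie between 1.66 and 2.13 in all libraries from stage 2 on. Levels use the deposited scaling; with equal total reads the latter lie between 0.63 and 0.83 in stage 5.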

How the data were processed

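Poly(A) RNA with an integrity number of at least 8 was made into stranded libraries, per the labels' protocols. Trimmomatic, HISAT2 and DESeq2 are named in the submitters' processing notes; the sources used here state no version, read counter, genome build or annotation. The deposited values are a normalised signal, gene read counts that the authors divided by 1 size factor per library. Whole reads were recovered by dividing by the value of 1 read, which left 100% of the values in each library within 0.01 of a whole number. Every column belonged to a library of the series.

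Genes at 10 or more normalised counts in at least 2 of the 6 libraries were tested with limma 3.58.1 (R 4.3.3) after a log2(normalised count + 1) transform (trend in the prior variance, stages 1 and 2 only, no block). Two-sided p-values were adjusted (Benjamini-Hochberg) over all 18667 genes. The added 1 makes the fold change of low genes too small. Described genes had to pass, without overlap of libraries and with a mean of at least 100 in the higher stage; the 2 greatest gains and 2 greatest losses of mean normalised count were taken. Members, rules and tests were chosen with earlier results of these data known. Gene lists by name could not be applied, because the table holds identifiers only.

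Replicate numbers come from the titles. Deviations from the stage means correlated across genes at 0.41, 0.26 and 0.25 for replicates 1, 2 and 3 of both stages, above 0.1 in every pair, and the numbers were taken to pair the libraries. Libraries with different numbers correlated at -0.40 to 0.13. Stage 1 replicate 2 and stage 2 replicate 3, at 0.13, thus also lay above 0.1. Deviations from a stage mean cancel out within the stage, so positive values for matching numbers force the other values to be negative on balance. The contrast between matching and differing numbers is therefore partly built in. The check cannot tell shared fruit or plants from shared depth or processing. In simulated counts for this comparison (18331 genes tested, 200 changed) the test recovered 57% of 2-fold and 99% of 4-fold changes, and 3.11% of the calls were unchanged genes. The simulated spread followed read level only, with no spread of its own for a gene and no library standing apart. Far fewer genes changed than were called in the data, and genes with the fewest reads were left unchanged. These percentages therefore do not carry over to the calls reported here. Alternatives included edgeR 4.0.16 and DESeq2 1.42.0 on the recovered reads.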

Additional observations from a re-analysis of the deposited data

How the results depend on the processing

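The count of called genes stayed within 1.5 times 8676 under every alternative, from 6267 with only replicates 1 and 3 of each stage to 9748 with the replicate block; it was 7169 to 8873 without single libraries, 8208 with all 14 libraries in the model, 8572 by edgeR and 9095 by DESeq2. Rises numbered 2255 with equal total reads and 2237 with only replicates 1 and 3 (2 libraries per stage). Replicates 1 and 3 carry different title codes, and 70.1% of the 8676 calls were kept with them alone. With only replicates 2 and 3, which share a code within each stage, 84.4% were kept. Replicates 1 and 2 alone were not fitted, and stage 1 replicate 1 was the stage 1 library that stood apart in the most genes. Whether the codes account for the difference was not tested. Genes changed at least 16-fold numbered 425 with a pseudocount of 10, which shrinks changes of low genes by construction. Genes without reads in one stage numbered 29 (stage 2) and 8 (stage 1) at the shallowest depth. The share of calls that rose, 40.2%, became 37.7% with no filter, 43.8% with a minimum of 50, 38.0% with upper-quartile scaling, 54.6% with quantile normalization and 24.4% with equal total reads. It was 38.9% with a flat prior variance, 43.1% with all 14 libraries, 42.2% with the replicate block, 42.3% by edgeR, 45.5% by DESeq2, 42.9% with only replicates 2 and 3, 35.7% with only replicates 1 and 3, and 37.3% to 42.9% without single libraries. Chosen after the data were seen, equal total reads moved the median log2 level relative to stage 1 of genes that rose at least 2-fold from 1.73 to 1.48 in stage 2 and from 1.98 to 0.71 in stage 5, and of genes that fell from -2.51 to -2.74 and from -4.03 to -4.73. For the remaining moves the cause was not tested. Ro03_G20665 went to -0.14 with quantile normalization and lost its call with only replicates 1 and 3; the other described genes kept direction and call under all 20 alternatives, and the replicate block ended the call of none of the 4. It ended the calls of 79 of the 8676 genes. Replicate 2 of each stage, with 7576338 and 8601064 reads, limits the precision of low levels.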

Other observations

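Calls were spread evenly over the identifier prefixes Ro01 to Ro07. Between 44.8% (Ro07) and 47.5% (Ro02 and Ro06) of the tested genes of a prefix passed, with 18.2% to 19.6% rising and 26.3% to 28.9% falling. The share of identifiers that reached the minimum for testing was lowest for Ro07, at 49.8%, and 55.0% to 58.8% for the other prefixes.

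Genes next to each other in identifier number moved in the same direction more often than genes farther apart. Where both of 2 neighbouring identifiers in the deposited table were called, they had the same direction in 1723 of 2860 pairs (60.2%). The share was 55.1% at 2 places apart, 52.3% at 5, 52.4% at 20 and 53.7% at 100. The longest unbroken run of called identifiers was 5 for rises and 6 for falls. The run length to be had by chance was not worked out, so nothing is read from these runs. Whether identifier numbers follow position in the genome is not given in the sources used here, near-identical neighbours can share reads, and neither was tested.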
